A study of Mus musculus with 4 samples.

Results

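The neuropeptide receptors described here were 10 genes chosen by symbol, Sstr1, Sstr2, Sstr3, Sstr4, Vipr1, Vipr2, Tacr1, Tacr3, Calcr and Npy1r. All 10 were present in the count table, which held 12700 genes. RNA was sequenced from the brains of 9-month-old C57BL/6 mice, either Ids-ko (genotype Ids-/-, the model of mucopolysaccharidosis type II, which lacks the lysosomal enzyme iduronate-2-sulfatase) or wild type (wt). The Ids-ko mice came from 1 knock-out line and the wt mice were its littermates. Each brain was divided into cerebral cortex (Cx) and an area M that included midbrain, diencephalon and hippocampus, and, according to the methods of the study, striatum. RNA of several mice was pooled for each condition, which left 1 library for each of CxH (cortex, Ids-ko), CxWT (cortex, wt), MH (M area, Ids-ko) and MWT (M area, wt), and no replicate of any condition.

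Neuropeptide receptors are G-protein-coupled receptors on the cell surface. They sense peptides that neurons release beside their fast transmitters, and they act more slowly and over a longer distance than ion channels. In the brain, somatostatin and NPY receptors mostly couple to inhibitory G proteins, VIP and calcitonin receptors mostly raise cyclic AMP, and tachykinin receptors mostly raise cytosolic calcium.

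A gene was called between a pair of libraries where a likelihood ratio test on their Poisson counts gave p under 0.05 and the log2 ratio reached 0.7 in either direction. Such a call compares these libraries and not the genotypes.

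The reads of Ids (Entrez 15931, chrX:67596244-67618260, minus strand) went against the labels in the M area. The libraries labelled CxH, CxWT, MH and MWT had 5211, 11890, 13752 and 4496 Ids reads, so that the log2 ratio was -1.39 ± 0.02 for CxH over CxWT but 1.24 ± 0.02 for MH over MWT (± standard error, SE, from counting reads). Reads are summed over the gene, so those from the disrupted part cannot be told apart from the rest. Markers of the areas went against the labels of MH and CxWT, while those in CxH and MWT went with their labels. Of 11 cortex markers, 10 were called higher in CxH than in CxWT and 10 in MH than in MWT, and their summed level, in reads per 1000000 aligned reads (RPM), was 1805 and 1681 RPM in CxH and MH against 242 and 184 RPM in CxWT and MWT. All 15 midbrain and diencephalon markers in the table were called lower in CxH than in CxWT and lower in MH than in MWT, with summed levels of 23.6 and 35.9 RPM in CxH and MH against 525 and 449.6 RPM in CxWT and MWT. En1, a midbrain marker, had 1 and 0 reads in CxH and MH and 273 and 126 reads in CxWT and MWT. Slc6a4 had 3 and 2 reads in CxH and MH, Hcrt 3 in each and Otp 3 and 2, while Avp had 3 in CxH and Gata3 and Oxt had 1 in CxH. Slc17a7, the vesicular glutamate transporter of cortical neurons, had 52335 and 46328 reads in CxH and MH against 5120 and 3119 in CxWT and MWT, and Slc17a6, that of midbrain and diencephalic neurons, had 405 and 816 against 6988 and 5939. Of 9 striatum markers, 8 were called higher in CxH than in CxWT and 8 in MH than in MWT, while the calls of hippocampus markers (1 of 5 higher and 1 lower in Cx, 2 higher and 0 lower in M), choroid plexus markers (3 of 5 higher and 1 lower, then 2 and 1), microglia markers (2 of 6 higher and 0 lower, then 0 and 1) and interneuron markers (1 of 5 higher and 1 lower, then 0 and 3) were mixed. The summed choroid plexus level was 572 and 619.8 RPM in CxH and MH and 141 and 259 RPM in CxWT and MWT. Most of it came from Ttr, at 537 and 583 RPM in CxH and MH and 113 and 221 RPM in CxWT and MWT. Ttr and Folr1 were called higher in both comparisons and Kl in Cx. Otx2 was called lower in both (log2 ratios of -1.97 and -1.57), and Clic6 was called in neither. For these reasons CxH, CxWT, MH and MWT are used below as the names of the labelled libraries. Values given for all of them follow that order, the ratio of CxH over CxWT is called the Cx ratio, and that of MH over MWT the M ratio. Reads on genes ranged from 16380080 in MWT to 23475080 in CxH.

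The 4 receptors whose levels ranged most widely over the libraries were Calcr, Tacr3, Vipr1 and Vipr2. The sequences that lie before these genes are shown because Vipr1 and Vipr2 bind the same peptides and yet showed opposite ratios, whereas Calcr and Tacr3 were the receptors with the lowest ratios. Each line gives the 250 bases before the annotated start of the gene, 5′ to 3′ on the strand of the gene, from the NCBI37/mm9 genome on which the reads were aligned. The windows are chr6:3714714-3714963 on the minus strand for Calcr, chr3:134491721-134491970 on the plus strand for Tacr3, chr9:121551584-121551833 on the plus strand for Vipr1 and chr12:117315946-117316195 on the plus strand for Vipr2. Capitals mark matches on either strand to the cyclic AMP response element (CRE, TGACGTCA), to its half-site (TGACG, which the CRE contains), to the GC box (GGGCGG) and to the CCAAT box (CCAAT), and adjoining or overlapping matches run together.
Calcr: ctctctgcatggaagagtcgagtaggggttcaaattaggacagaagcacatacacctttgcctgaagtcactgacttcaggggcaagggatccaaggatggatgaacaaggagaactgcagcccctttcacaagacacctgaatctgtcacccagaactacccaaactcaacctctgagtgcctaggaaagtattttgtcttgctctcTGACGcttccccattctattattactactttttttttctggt
Tacr3: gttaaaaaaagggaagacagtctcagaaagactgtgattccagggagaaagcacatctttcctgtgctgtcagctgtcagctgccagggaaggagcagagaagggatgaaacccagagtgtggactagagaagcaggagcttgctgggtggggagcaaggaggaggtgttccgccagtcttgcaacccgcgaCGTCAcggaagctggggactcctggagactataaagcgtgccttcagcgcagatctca
Vipr1: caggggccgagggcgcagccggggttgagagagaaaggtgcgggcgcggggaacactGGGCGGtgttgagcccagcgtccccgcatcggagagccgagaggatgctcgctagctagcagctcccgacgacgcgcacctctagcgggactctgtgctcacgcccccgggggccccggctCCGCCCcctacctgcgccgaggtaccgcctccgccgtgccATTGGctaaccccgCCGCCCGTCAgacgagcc
Vipr2: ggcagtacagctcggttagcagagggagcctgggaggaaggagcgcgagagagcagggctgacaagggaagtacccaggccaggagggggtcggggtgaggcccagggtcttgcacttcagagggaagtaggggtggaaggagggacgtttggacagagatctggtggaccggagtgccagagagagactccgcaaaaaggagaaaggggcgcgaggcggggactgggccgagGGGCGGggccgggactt

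The GC content of these windows was 46.0% for Calcr, 54.4% for Tacr3, 72.8% for Vipr1 and 65.2% for Vipr2, against a median of 59.2% over the windows of the 12371 genes with an annotated transcript. The full CRE occurred before 1 of the 10 receptor genes, Sstr2, and in 2.47% of all windows. The half-site occurred before 7 receptor genes (25.2% of all windows), the GC box before 3 (55.9%) and the CCAAT box before 3 (34.7%). The half-site was found before Sstr2, Sstr3 and Vipr1 and also before Tacr1, Tacr3 and Calcr, receptors with ratios of opposite sign. A match of letters is not a binding site.

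By their labels, CxH vs. CxWT sets Ids-ko against wt in the cortex and MH vs. MWT does so in the M area, with the Ids reads and markers above going against these labels. In CxH vs. CxWT, 4 receptors were called higher (Sstr2, Sstr3, Sstr4 and Vipr1), where 9.46% of all genes were called higher, and 4 were called lower (Vipr2, Tacr1, Tacr3 and Calcr), where 11.5% of all genes were called lower. The comparison MH vs. MWT, which shares no library with the first but shares its mice and its sequencing run, called the same 4 receptors higher (background 12.3%) and the same 4 lower (background 12.7%). Sstr1 and Npy1r were called in neither. A fit of the genotype labels over all 4 libraries with the area as a block (edgeR's quasi-likelihood test, 1 residual degree of freedom, no limit on the log2 ratio, chosen after the data were seen) found 5 receptors higher in the libraries labelled Ids-ko at an adjusted p under 0.05, where 8.76% of all genes were, and 4 lower, where 9.90% were. These were the 8 called receptors, with adjusted p from 0.00026 (Vipr1) to 0.029 (Sstr2), and Npy1r, with an adjusted p of 0.0498 and a log2 ratio of 0.60, under the limit of 0.7. This edgeR fit takes the ratios of the labelled areas, which come from the same mice, as repeats of a single effect of the labels. Its adjusted p-values therefore measure no spread between mice. The labels it fits also divide the libraries as the markers above do. For Ids the edgeR fit gave a log2 ratio of -0.07 (adjusted p = 0.94). The study had already named Calcr and the Sstr, Tacr and Vipr families as altered in these data. Setting the receptors against all genes is therefore no independent test. Without regard to sign, the median log2 ratio was 1.48 over the receptors and 0.34 over all genes in Cx, and 1.52 and 0.40 in M. The receptors thus split along the same libraries as the cortex and midbrain markers above, and the part of what these markers show in the receptor ratios was not tested. In bulk RNA, fewer cells of a type and less RNA per cell cannot be told apart.

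**Figure D1:**
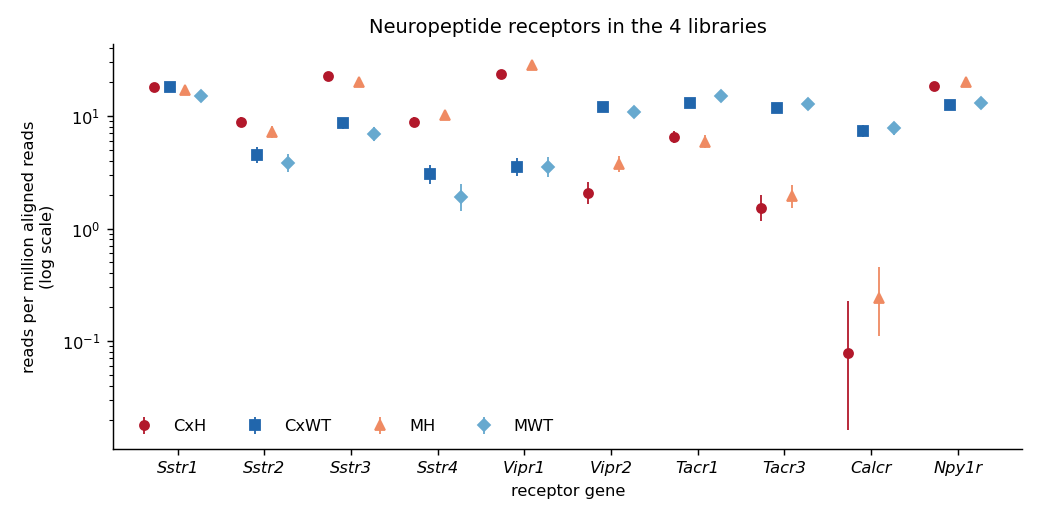
Levels of the 10 receptor genes (x axis) in RPM (y axis, log scale), with 1 point for each library and 95% exact Poisson intervals, which cover counting error only and are hidden by the larger symbols. Sstr2, Sstr3, Sstr4 and Vipr1 are high in CxH and MH, Vipr2, Tacr1, Tacr3 and Calcr are high in CxWT and MWT, and Calcr lies at 3 reads in CxH.

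**Figure D2:**
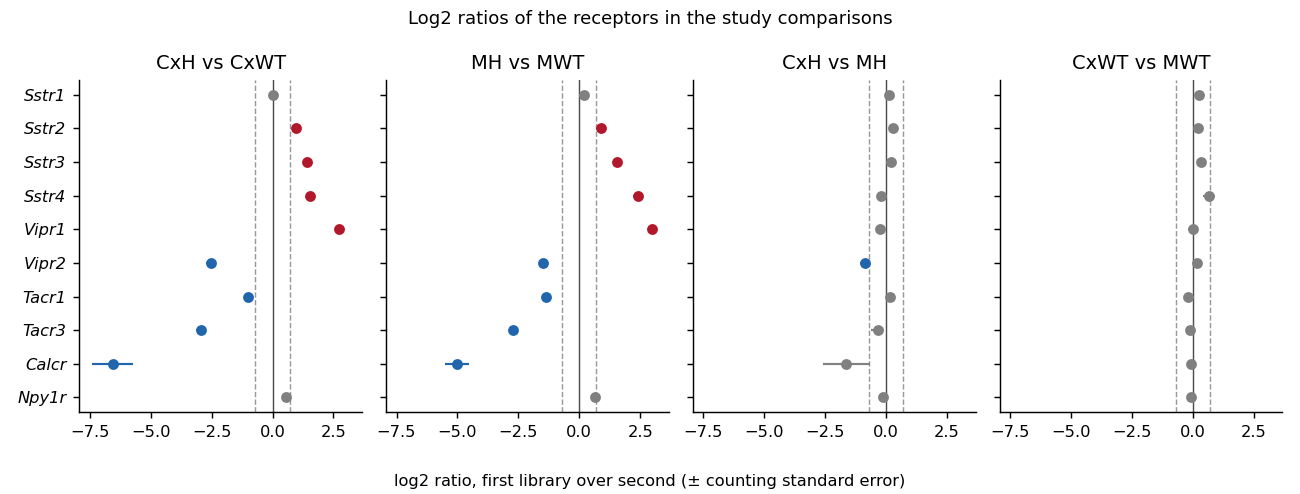
Log2 ratios of the receptors in the 4 comparisons of the study (x axis, first library over second, with the SE from counting), where red marks receptors called higher, blue those called lower, grey those not called, and dashed lines a log2 ratio of 0.7 in either direction. The 8 calls of the first panel recur in the second, and 1 receptor, Vipr2, is called in the third panel and none in the fourth.

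Somatostatin receptors bind somatostatin and cortistatin, peptides made largely by inhibitory interneurons. Sstr1 (Entrez 20605, chr12:59312759-59315431, plus strand) had 700, 607, 632 and 433 reads, or 18.2, 18.1, 16.9 and 14.96 RPM. It was the most even of the receptors, with a Cx ratio of 0.01 ± 0.08 and an M ratio of 0.18 ± 0.09 (log2), and the sign depended on the correction for GC content and length (-0.25 and -0.16) and, in Cx, on the library totals. Per transcript length it was the most abundant receptor in every library, with 9.03, 8.97, 8.40 and 7.43 RPM per kilobase of transcript (RPKM).

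Sstr2 (Entrez 20606, chr11:113480656-113487319, plus strand), the main target of clinical somatostatin analogs, had 341, 151, 268 and 111 reads, or 8.86, 4.49, 7.17 and 3.83 RPM. Both values of the libraries labelled CxH and MH lay above both others. The Cx ratio was 0.98 ± 0.14 and the M ratio 0.90 ± 0.16 (log2). The gene overlaps Slc39a11 on the opposite strand, and how the counting treated strand is not given in the sources used here, so the reads of this receptor are uncertain.

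Sstr3 (Entrez 20607, chr15:78367445-78374775, minus strand), known for its place in neuronal cilia, had 879, 289, 742 and 199 reads, or 22.8, 8.60, 19.9 and 6.87 RPM. Again CxH and MH lay above CxWT and MWT, and the Cx ratio was 1.41 ± 0.10 and the M ratio 1.53 ± 0.12 (log2). Sstr4 (Entrez 20608, chr2:148221113-148226239, plus strand) had 342, 102, 380 and 55 reads, or 8.88, 3.03, 10.2 and 1.90 RPM. Its Cx ratio was 1.55 ± 0.16 and its M ratio 2.42 ± 0.21 (log2). MWT held the fewest Sstr4 reads and MH the most, so that the M ratio exceeded the Cx ratio by 0.87 ± 0.26 (log2, SE from counting), a difference that has no replicate test.

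As a group, the 4 somatostatin receptors summed to 24.7, 15.5, 22.8 and 12.5 RPKM in CxH, CxWT, MH and MWT. Sstr1 made up 36.6% and 36.8% of this sum in CxH and MH, but 57.9% and 59.2% in CxWT and MWT. The share of Sstr4 was 16.6% and 20.5% in CxH and MH and 9.02% and 6.97% in CxWT and MWT. The balance of subtypes therefore differed between the same pairs of libraries, with Sstr1 the leading subtype in all 4.

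Vipr1 and Vipr2 both bind vasoactive intestinal peptide (VIP) and the pituitary adenylate cyclase-activating peptide PACAP, and Vipr2 is known as the receptor through which VIP synchronises the circadian clock of the hypothalamus. Vipr1 (Entrez 22354, chr9:121551834-121582072, plus strand) had 909, 119, 1053 and 102 reads, or 23.6, 3.54, 28.2 and 3.52 RPM. The libraries labelled CxWT and MWT were low and nearly equal. Its Cx ratio was 2.74 ± 0.14 and its M ratio 3.00 ± 0.15 (log2), a level 6.67-fold (95% exact interval 5.50 to 8.14) and 7.998-fold (6.52 to 9.90) higher. Among the 12700 genes this ratio ranked 37th from the highest in Cx and 44th in M.

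Vipr2 (Entrez 22355, chr12:117316196-117384734, plus strand) showed the reverse. It had 80, 406, 141 and 311 reads, or 2.08, 12.1, 3.77 and 10.7 RPM, so that CxWT and MWT were high. The Cx ratio was -2.54 ± 0.18 and the M ratio -1.51 ± 0.15 (log2), a level 5.81-fold (4.56 to 7.48) and 2.85-fold (2.33 to 3.50) lower. The M ratio was less negative by 1.03 ± 0.23 (log2), and MH held more Vipr2 reads than CxH, a difference that was not tested over replicates. Vipr2 was the single receptor called in CxH vs. MH, at a log2 ratio of -0.86 ± 0.20, and this call was lost at a log2 threshold of 1 and with an assumed coefficient of variation of 0.2.

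Within a library, the level of Vipr1 per transcript length was 7.85 times (95% exact interval 6.24 to 9.99) that of Vipr2 in CxH and 5.16 times (4.32 to 6.19) in MH. In CxWT and MWT it was 0.20 times (0.16 to 0.25) and 0.23 times (0.18 to 0.28) that of Vipr2. The leading VIP receptor was thus Vipr1 in the libraries labelled CxH and MH and Vipr2 in those labelled CxWT and MWT, and this ratio within a library does not depend on library totals.

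**Figure D3:**
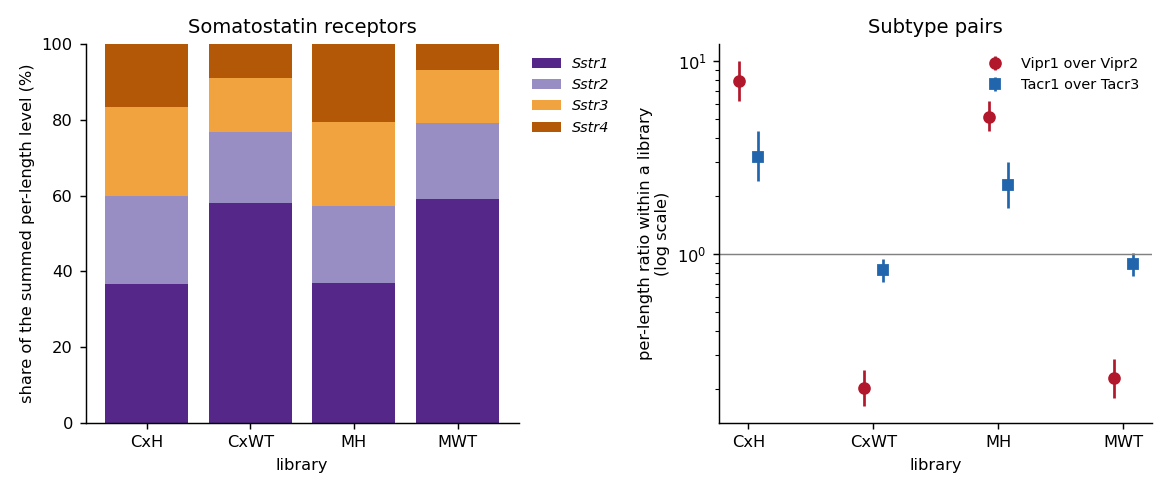
Left, share of each somatostatin receptor in the summed per-length level of the 4 (y axis, percent) for each library. Right, ratio of the per-length levels of Vipr1 over Vipr2 and of Tacr1 over Tacr3 within each library (y axis, log scale) with 95% exact intervals from counting, where the line at 1 marks equal levels. The Vipr1 over Vipr2 ratio lies above 1 in CxH and MH (7.85 and 5.16) and below 1 in CxWT and MWT (0.20 and 0.23).

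Tachykinin receptors bind substance P (Tacr1) and neurokinin B (Tacr3). Tacr1 (Entrez 21336, chr6:82352328-82510097, plus strand) had 252, 438, 221 and 436 reads, or 6.54, 13.0, 5.91 and 15.1 RPM. The Cx ratio was -0.99 ± 0.11 and the M ratio -1.35 ± 0.12 (log2), with CxWT and MWT both above the other two. Tacr3 (Entrez 21338, chr3:134491971-134597545, plus strand), which in the hypothalamus takes part in the control of reproductive hormones, had 59, 398, 73 and 370 reads, or 1.53, 11.8, 1.95 and 12.8 RPM. Its Cx ratio was -2.95 ± 0.20 and its M ratio -2.71 ± 0.18 (log2), a level 7.73-fold (5.87 to 10.3) and 6.54-fold (5.08 to 8.53) lower. Of the tachykinin pair, Tacr3 showed the more negative ratio in both comparisons. Per length, Tacr1 was 3.20 times (2.40 to 4.32) and 2.27 times (1.73 to 3.00) the level of Tacr3 in CxH and MH, and 0.82 times (0.72 to 0.95) and 0.88 times (0.77 to 1.02) in CxWT and MWT, where the interval of MWT includes equal levels.

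Calcr (Entrez 12311, chr6:3635677-3714713, minus strand), the receptor of calcitonin and, with RAMP proteins, of amylin, showed the widest range of the 10. It had 3, 248, 9 and 226 reads. The level was 0.0779 RPM (95% exact Poisson interval 0.0161 to 0.228) in CxH and 0.24 RPM (0.11 to 0.46) in MH, against 7.38 RPM (6.49 to 8.35) in CxWT and 7.81 RPM (6.82 to 8.89) in MWT. In CxH Calcr was thus at 3 reads, the limit that a count of 0 allows, and in MH above it, while in CxWT and MWT 22.8% and 25.0% of all genes had fewer reads. The log2 ratio of -6.56 ± 0.84 in Cx was the 10th lowest of all genes and that of -5.02 ± 0.49 in M the 13th lowest. As folds, the level was 94.7-fold lower (95% exact interval 32.0 to 462) in Cx and 32.4-fold lower (16.8 to 71.8) in M, and the width of these intervals comes from the few reads in CxH and MH. The microRNA genes Mir653 and Mir489 lie inside Calcr on the same strand.

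Npy1r (Entrez 18166, chr8:69221321-69230697, plus strand), a receptor of neuropeptide Y known for its part in feeding and anxiety, had 705, 417, 754 and 374 reads, or 18.3, 12.4, 20.2 and 12.9 RPM. CxH and MH lay above CxWT and MWT, but the log2 ratio of 0.56 ± 0.09 in Cx and 0.64 ± 0.09 in M stayed under 0.7. Because the M ratio lay close to the threshold, the call depended on the scaling, and with TMM or DESeq2 size factors (0.70) Npy1r was called higher in M. With the correction for GC content and length it was called in both comparisons, at 0.84 in Cx and 0.92 in M.

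Ordered by level per transcript length, Sstr1 came first and Npy1r second in all 4 libraries. In CxH the order went on with Sstr3, Sstr2, Vipr1, Sstr4, Tacr1, Vipr2, Tacr3 and Calcr, from 5.81 RPKM for Sstr3 to 0.0207 RPKM for Calcr. The counting intervals of Npy1r, Sstr3 and Sstr2 overlapped among themselves, as did those of Vipr1 with Sstr4 and of Vipr2 with Tacr3. In MH the order was Vipr1, Sstr3, Sstr4, Sstr2, Tacr1, Vipr2, Tacr3 and Calcr, where intervals overlapped between neighbours from Vipr1 to Sstr2 and between Tacr1 and Vipr2. In CxWT, Npy1r was followed by Vipr2, Tacr3, Sstr2, Tacr1, Sstr3, Calcr, Sstr4 and Vipr1, and in MWT by Tacr3, Vipr2, Tacr1, Sstr2, Calcr, Sstr3, Sstr4 and Vipr1. Vipr1, next after Npy1r in MH at 5.75 RPKM, was thus last in CxWT and MWT at 0.72 RPKM in each. In CxWT the neighbours from Npy1r to Calcr overlapped, and in MWT those from Tacr3 to Sstr3 and Sstr4 with Vipr1.

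By their labels, CxH vs. MH and CxWT vs. MWT set the areas against each other within a genotype, and here too the Ids reads and markers go against the labels. Both share libraries with the comparisons above. In CxH vs. MH, 0 receptors were called higher, where 2.43% of all genes were, and 1 (Vipr2, a call lost under the alternatives named above) was called lower, where 1.06% of all genes were. In CxWT vs. MWT, 0 receptors were called in either direction by the likelihood ratio rule, with a background of 5.43% higher and 2.11% lower. Without regard to sign, the median log2 ratio over the receptors was 0.23 in CxH vs. MH (0.20 over all genes) and 0.19 in CxWT vs. MWT (0.24 over all genes). In CxWT vs. MWT the ratio farthest from 0 was 0.68 ± 0.24 for Sstr4, just under the threshold. Calcr, at 3 reads in CxH and 9 in MH, had a log2 ratio of -1.63 ± 0.96 and was not called at this depth. The other ratios in CxH vs. MH ran from -0.35 (Tacr3) to 0.30 (Sstr2), and those in CxWT vs. MWT from -0.21 (Tacr1) upward. Fewer midbrain and diencephalon markers were called in these comparisons (4 of 15 called lower in CxH than in MH, 4 of 15 called higher in CxWT than in MWT). Of the 11 cortex markers, 0 were called in either. Ids was called lower in CxH than in MH (log2 ratio -1.44 ± 0.02) and higher in CxWT than in MWT (1.19 ± 0.03).

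**Figure D4:**
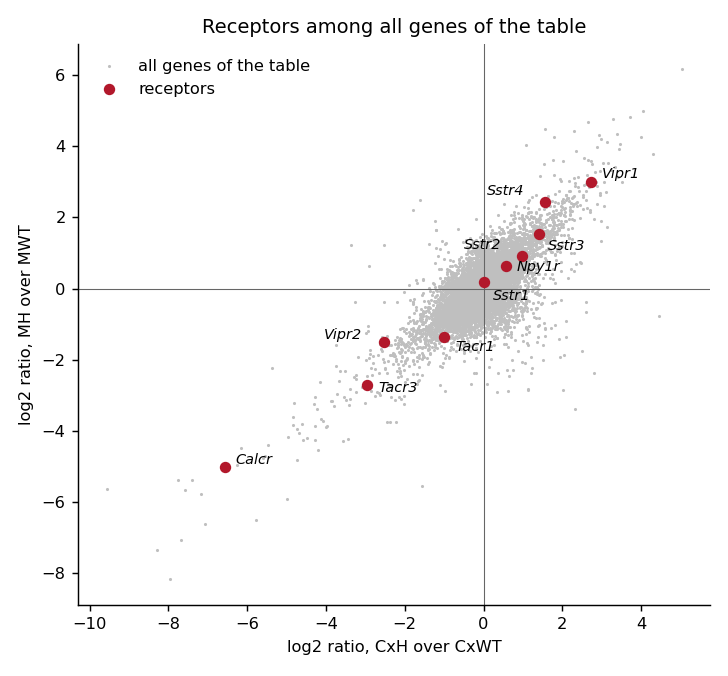
Log2 ratio of CxH over CxWT (x axis) against that of MH over MWT (y axis) for the 12700 genes of the table (grey) and the 10 receptors (red). Calcr lies far to the lower left (-6.56 and -5.02) and Vipr1 far to the upper right (2.74 and 3.00), while Sstr1 lies near the origin. The comparisons share no library, but they share mice and sequencing run.

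Of 12 genes listed for peptide ligands of these receptors, 7 were in the table. Calca, Calcb, Iapp, Pyy and Ppy were absent, so no listed ligand of Calcr could be described. Sst, the gene of somatostatin, had 3524, 1559, 2526 and 994 reads and a Cx ratio of 0.98 ± 0.04 and an M ratio of 0.98 ± 0.05 (log2). Cort (cortistatin), at 74, 10, 57 and 10 reads, had 2.69 ± 0.49 and 2.14 ± 0.49. Vip, at 800, 219, 1014 and 179 reads, had 1.67 ± 0.11 and 2.13 ± 0.12, and Npy, at 1690, 410, 1600 and 269 reads, had 1.85 ± 0.08 and 2.20 ± 0.10. These 4 ligand genes were called higher in both comparisons, as were the somatostatin receptor genes Sstr2, Sstr3 and Sstr4 and the VIP receptor gene Vipr1, whereas Npy1r was not called.

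Adcyap1, the gene of PACAP, which also acts through Vipr1 and Vipr2, had 341, 736, 292 and 701 reads and was called lower, at -1.31 ± 0.09 in Cx and -1.63 ± 0.10 in M. Tac2, the gene of neurokinin B, had 118, 265, 106 and 203 reads and was called lower, at -1.36 ± 0.16 and -1.31 ± 0.17. Tac1, the gene of substance P, had 693, 699, 570 and 858 reads. It was called lower in M (-0.96 ± 0.08) and not called in Cx (-0.21 ± 0.08). In all, 4 ligand genes were called higher and 2 lower in Cx, and 4 higher and 3 lower in M, where 9.46%, 11.5%, 12.3% and 12.7% of all genes were called in the same order, with a median log2 ratio of 0.98 in each against -0.09 and -0.07 over all genes. In the tachykinin system ligand and receptor genes called in a comparison were all lower, and in the VIP and PACAP system each direction held 1 ligand and 1 receptor gene.

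**Figure D5:**
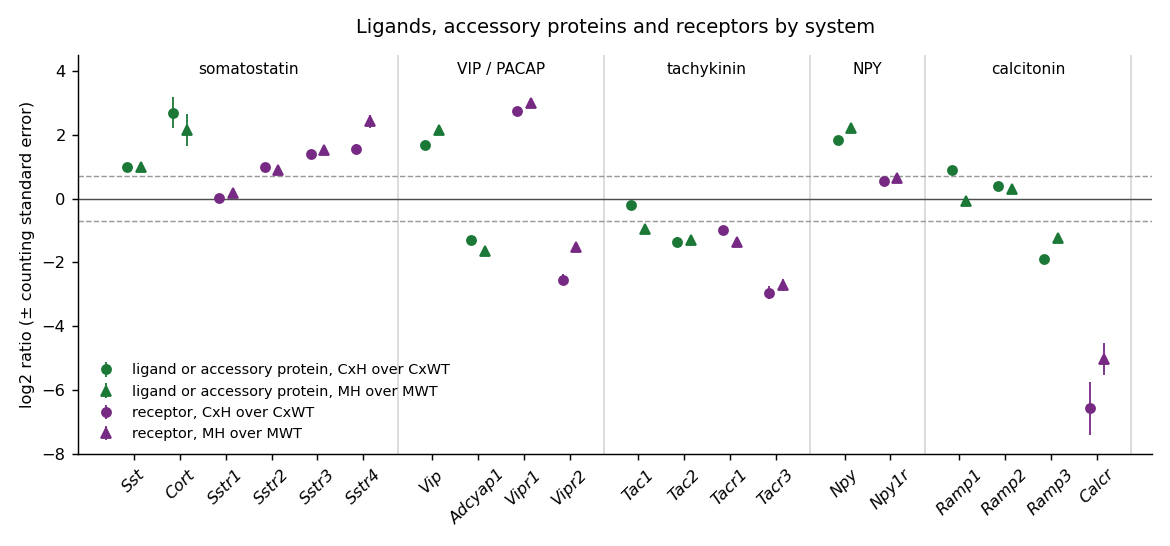
Log2 ratios of ligand or accessory protein genes (green) and of the receptor genes (purple) grouped by peptide system, for CxH over CxWT (circles) and MH over MWT (triangles), with the SE from counting. Dashed lines mark a log2 ratio of 0.7 in either direction. In the tachykinin group all values lie below 0, and in the calcitonin group Ramp3 and Calcr lie below the lower line. The calcitonin group holds accessory proteins and no ligand gene.

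Partners of these receptors were also counted. Of 18 genes for RAMP proteins, G protein alpha subunits, arrestins and receptor kinases, 1 was called higher and 1 lower in Cx, and 1 higher and 2 lower in M, against the shares of all genes given for the ligands (9.46%, 11.5%, 12.3% and 12.7%), with medians of 0.11 and 0.07. RAMP proteins set which peptide calcitonin receptors bind. Ramp3 had 371, 1195, 349 and 633 reads and was called lower in both comparisons (-1.88 ± 0.09 and -1.23 ± 0.10), as was Calcr. Ramp1, at 2158, 1019, 1227 and 1005 reads, was called higher in Cx (0.89 ± 0.05), where CxH stood above the other 3 libraries, and not called in M (-0.08 ± 0.06). Ramp2 was not called (0.39 ± 0.09 and 0.31 ± 0.10).

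Among G proteins, Gnas, the stimulatory subunit that VIP and calcitonin receptors use, was called lower in M (-0.72 ± 0.02) and not called in Cx (-0.32 ± 0.01). Gnaz, an inhibitory subunit, had 1543, 1166, 1265 and 539 reads and was called higher in M (0.86 ± 0.07), where MWT stood below the other libraries, and not called in Cx (0.21 ± 0.06). The other G protein genes, Gnal, Gnaq, Gna11, Gnai1, Gnai2, Gnai3 and Gnao1, were called in neither comparison, with log2 ratios from -0.53 (Gnai3 in M) to 0.68 (Gna11 in Cx). The arrestins Arrb1 and Arrb2 and the receptor kinases Grk2, Grk3, Grk5 and Grk6 were called in neither comparison, with log2 ratios from -0.39 (Grk5 in M) to 0.52 (Grk2 in Cx).

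Of 56 other neuropeptide receptor genes on a wider list, 32 were in the table. In Cx, 5 were called higher and 14 lower, and in M 6 higher and 13 lower, beside 9.46%, 11.5%, 12.3% and 12.7% of all genes, with medians of -0.67 and -0.20. The 13 lower in M became 7 at a log2 threshold of 1 and 7 with an assumed coefficient of variation of 0.2. Among called genes that reached 100 reads in either library, the highest ratios in both comparisons belonged to Glp2r, a receptor of glucagon-like peptide (144, 17, 114 and 12 reads, log2 ratios of 2.89 ± 0.37 and 2.88 ± 0.44), and Cckbr, the main cholecystokinin receptor of the brain (1400, 265, 1103 and 199 reads, 2.21 ± 0.10 and 2.102 ± 0.11). They were followed by Oprd1, the delta opioid receptor (1.62 ± 0.13 and 1.62 ± 0.14), and Rxfp1, a relaxin receptor (1.499 ± 0.27 and 1.58 ± 0.23). Each of these 4 genes was called higher in both comparisons, as Sstr2, Sstr3, Sstr4 and Vipr1 were.

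By the same limit on reads the lowest ratio of the wider list was that of Agtr2, an angiotensin receptor, with 8, 125, 23 and 110 reads and a Cx ratio of -4.16 ± 0.53 and an M ratio of -2.63 ± 0.33 (log2). Hcrtr1 and Hcrtr2, the orexin receptors, were also called lower in both comparisons (-1.84 ± 0.19 and -1.79 ± 0.21 for Hcrtr1, -2.09 ± 0.22 and -1.42 ± 0.21 for Hcrtr2). Cckar, the second cholecystokinin receptor, had 12, 109, 12 and 80 reads and -3.38 ± 0.44 in Cx and -3.11 ± 0.45 in M. The cholecystokinin receptors Cckar and Cckbr therefore had ratios of opposite sign, as Vipr1 and Vipr2 did. Oprl1, the nociceptin receptor, had 1491, 2972, 1494 and 2493 reads and was called lower at -1.19 ± 0.05 and -1.11 ± 0.05.

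For Calcr, Tacr3 and Vipr1, the most similar genes over the 4 libraries were sought among 11987 genes. The measure was the distance between centred profiles of log2(RPM + 0.1), a description that rests on 4 values per gene. Calcr had 0.0779 RPM in CxH, less than the added 0.1, so this constant shapes its profile. Its Cx ratio was -6.56 against -5.55 for Tph2. Nearest to Calcr were Tph2, the serotonin-synthesising enzyme of raphe neurons (19, 778, 36 and 733 reads), Pgr15l (0, 148, 5 and 161 reads) and Chrna6, a nicotinic receptor subunit of dopamine neurons (7, 468, 14 and 339 reads). Nearest to Tacr3 were Prkcd, a protein kinase C isoform (645, 3974, 799 and 3337 reads), Ddc, an enzyme of dopamine and serotonin synthesis (158, 1178, 184 and 975 reads), and Dbh, the noradrenaline-synthesising enzyme (13, 107, 14 and 82 reads). Nearest to Vipr1 were Ankrd33b (2455, 334, 2482 and 265 reads), Mei1 (196, 22, 203 and 16 reads) and Rspo2, a secreted activator of Wnt signaling (445, 64, 447 and 52 reads). Tph2 is also one of the midbrain and diencephalon markers used above.

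The 4 receptors called higher in both comparisons had a median transcript GC content of 55.6% and the 4 called lower one of 47.9%, against 50.7% over 12371 genes. After a correction of the ratios for GC content and length the log2 ratio of Vipr1 was 2.51 in Cx and 2.68 in M and that of Tacr3 -2.75 and -2.53, and all 8 receptors kept their calls.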

How the data were processed

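Counts for 4 libraries were used, 1 per condition. The deposited counts are whole reads per gene, not normalized. Per the labels and the methods of the study, the authors purified polyA RNA, made SOLiD Whole Transcriptome libraries, sequenced them in a single SOLiD 3 Plus run, aligned reads to NCBI37/mm9 with PASS (best hit, no gap), and kept reads on a single gene and genes covered over most of their length. The gene annotation is not given in the sources used here.

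Receptor symbols were matched to Entrez identifiers (12690 of 12700 genes had a symbol). Positions, transcript length and GC content came from GENCODE vM1 on the same build (12371 genes with a protein-coding transcript). RPM are counts scaled by the aligned reads of each library, and RPKM divide them by the longest protein-coding transcript. A count of 0 was set to 1 in ratios. For every gene, Poisson counts of both libraries went into a likelihood ratio test, and calls needed p under 0.05 and a log2 ratio past 0.7 in either direction, the thresholds of the study. With 1 library per condition no p-value is printed for a comparison of a pair of libraries, and adjusted p-values come only from the block fit named below. SE and exact intervals (95%) cover counting error only. Profiles used log2(RPM + 0.1) of genes that reached 100 reads in some library. Named genes were all receptors, Ids, all ligand and partner genes in the table, the 4 highest and 4 lowest called genes of the wider receptor list that reached 100 reads, the 3 nearest profiles, and markers at or under 3 reads or with most reads. Cckar in M, Bdkrb2, Adcyap1r1, Npy2r, Folr1, Otx2 and the motif matches fall outside this rule. The receptors and the lists were chosen with earlier results of these data known. Alternatives were column totals, edgeR TMM and DESeq2 size factors as scaling, a filter of 100 reads, a log2 threshold of 1, edgeR's exact test at a biological coefficient of variation set to 0.2, 0.5 added to every count, a lowess correction for GC content and length, and, added after the data were seen, an edgeR quasi-likelihood fit of the genotype labels over all 4 libraries with the area as block and Benjamini-Hochberg adjustment. The steps were tested on simulated data. Software was R 4.3.3 (DESeq2 1.42.0, edgeR 4.0.16) and Python 3.11.15 (scipy 1.17.1, pandas 2.3.3, numpy 2.4.6, statsmodels 0.14.6, matplotlib 3.10.9).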

Additional observations from a re-analysis of the deposited data

How the results depend on the processing

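The 8 calls in CxH vs. CxWT and in MH vs. MWT held under 8 alternatives, except that at a log2 threshold of 1 Sstr2 (0.98) and Tacr1 (-0.99) were not called in Cx nor Sstr2 (0.90) in M. In CxH vs. MH, 0 receptors were called lower at a log2 threshold of 1 and 0 with an assumed coefficient of variation of 0.2, where Vipr2 (-0.86) lost its call. Of the wider receptor list, 7 rather than 13 were called lower in M at a log2 threshold of 1 and 7 with an assumed variation of 0.2. Signs turned in ratios that were not called. With the correction for GC content and length these were Sstr1 in CxH vs. CxWT (-0.25), MH vs. MWT (-0.16) and CxH vs. MH (-0.12) and Npy1r in CxH vs. MH (0.064). Between CxWT and MWT these were Sstr1 (-0.052), Sstr3 (-0.011), Vipr1 (-0.25), Tacr3 (0.034), Calcr (0.036) and Npy1r (0.15). With column totals these were Sstr1 in CxH vs. CxWT (-0.0064) and Vipr1 in CxWT vs. MWT (-0.085), which was also negative with TMM (-0.0425) and DESeq2 size factors (-0.0424). The cause was not tested. Over all genes, the split of calls depended on scaling. In CxH vs. CxWT, 1201 were higher and 1457 lower, and with TMM 1447 and 1135. In MH vs. MWT it was 1556 and 1614, with column totals 1377 and 1896 and with TMM 1774 and 1386. In CxH vs. MH it was 309 and 135, and with column totals 257 and 183. In CxWT vs. MWT it was 690 and 268, and with column totals 480 and 390. No alternative scaling moved the median log2 ratio of all genes by 0.1 or more. With the area as replicate block, which pairs the libraries labelled Ids-ko and wt of the same labelled area in edgeR's quasi-likelihood test, and with no limit on the log2 ratio, 5 receptors were higher and 4 lower at an adjusted p under 0.05. These were the 8 called receptors and Npy1r, whose 0.60 would not pass the limit of 0.7. The fit assumes a single effect of the genotype labels in both areas, and its adjusted p-values measure no spread between mice. No library could be left out of a comparison, since each condition has 1. Depth limits Calcr most, at 3 reads in CxH and 9 in MH.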

Other observations

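Pairs of libraries that differ in both labels were compared as values, and they share libraries with the comparisons of the report. In CxH over MWT, whose Ids reads were 5211 and 4496, the log2 ratio was 2.74 ± 0.15 for Vipr1, 2.22 ± 0.21 for Sstr4, 1.73 ± 0.11 for Sstr3 and 1.21 ± 0.16 for Sstr2. On the other side it was -6.65 ± 0.84 for Calcr, -3.06 ± 0.20 for Tacr3, -2.37 ± 0.18 for Vipr2 and -1.203 ± 0.11 for Tacr1. In MH over CxWT, whose Ids reads were 13752 and 11890, it was 2.99 ± 0.14 for Vipr1, 1.75 ± 0.16 for Sstr4, 1.21 ± 0.10 for Sstr3 and 0.68 ± 0.15 for Sstr2, and -4.94 ± 0.49 for Calcr, -2.60 ± 0.18 for Tacr3, -1.68 ± 0.14 for Vipr2 and -1.14 ± 0.12 for Tacr1. Npy1r had 0.50 ± 0.09 in CxH over MWT and 0.702 ± 0.09 in MH over CxWT, and Sstr1 had 0.28 ± 0.09 and -0.09 ± 0.08. By the rule for calls, Npy1r was higher in MH over CxWT, and Sstr2 was not called there.

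Other receptor genes of the wider list differed in sign between the comparisons of Cx and M or were called in 1 of them. Bdkrb2, a bradykinin receptor, had 20, 51, 28 and 18 reads in the order of the report and log2 ratios of -1.55 ± 0.38 and 0.27 ± 0.44. Adcyap1r1, the PACAP receptor that does not prefer VIP, was far more abundant than Vipr1 and Vipr2, at 304, 480, 362 and 357 RPM, and was not called in either comparison (-0.66 ± 0.02 and 0.02 ± 0.02). Npy2r, at 173, 233, 306 and 199 reads, was not called in either (-0.63 ± 0.14 and 0.25 ± 0.13). These 3 genes were chosen after their values were seen.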
